A study of Mus musculus with 16 samples.

Results

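The genotype by paclitaxel interaction asks whether the transcriptional response of sensory ganglion cells to paclitaxel (PTX) differed between mice that could and mice that could not delete the lymphotoxin-beta receptor gene Ltbr in nociceptors. It was computed for each gene as the log2 PTX response under the CKO label minus the log2 PTX response under the fl/fl label, and it used all 16 of the 16 libraries of the series, 4 in each of 4 groups. A positive interaction means that the PTX libraries stood higher, relative to vehicle, under CKO than under fl/fl. All mice were males of 8 to 16 weeks homozygous for the floxed LTbR allele. The fl/fl groups carried that allele alone, and the CKO groups also carried Cre driven by Nav1.8, the sodium channel encoded by Scn10a, so deletion was directed at nociceptors and not at glia or immune cells. Each genotype received either 3 intraperitoneal doses of 6 mg/kg PTX at 2-day intervals or vehicle, which the treatment label gives as water. The tracer WGA-488 was placed in the paw of every mouse 16 days after the last injection, dorsal root ganglia of levels L3 to L5 were taken 18 days after it, and tracer-positive cells were sorted. The series' design text gives n = 3 for each group while the labels give 4 libraries. Nothing in the labels says that the 4 libraries of a group are separate mice, so some may share an animal, and the p-values then measure only how far these libraries differ, which may be technical.

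LTBR is a receptor of the tumour necrosis factor superfamily that binds lymphotoxin and LIGHT, recruits TRAF adaptors and activates the canonical and non-canonical NF-kB pathways. Paclitaxel stabilises microtubules and can cause a painful peripheral neuropathy. Dorsal root ganglia hold the cell bodies of sensory neurons, each wrapped by satellite glial cells, together with Schwann cells, fibroblasts, vessels and resident or infiltrating immune cells.

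The depth was 7906504 to 11668007 gene counts per library, over 12136 to 15418 detected genes. Titles date the PTX libraries to 24 or 25 September and the vehicle libraries to 1 or 2 October, with 2 libraries of each genotype on each date. Treatment and date therefore cannot be told apart, whereas genotype was balanced over dates. Sorted cells are labelled as traced neurons, yet 18 general sensory neuron markers took 0.106 to 0.748% of counts in vehicle libraries and 0.962 to 2.51% in PTX libraries. The neutrophil list took 7.86 to 19.7% of counts in vehicle libraries, 5.64 to 12.4% on 25 September and 0.0326 to 1.08% on 24 September. In RNA from a sorted suspension, fewer cells of a type and less RNA per cell cannot be told apart. Levels are CPM (counts relative to the TMM-adjusted library total), listed in the order of replicates 1 to 4. A gene is called where the two-sided edgeR quasi-likelihood test gave an adjusted p below 0.05 over all 14200 genes tested.

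The targeted gene itself did not show an interaction. Ltbr stood at 6.06, 8.61, 12.2 and 15.6 CPM in PTX fl/fl and at 23.3, 5.88, 19.5 and 28.4 CPM in PTX CKO. Without PTX it stood at 42.4, 51.4, 48.3 and 46.8 CPM in fl/fl and at 99.0, 54.3, 33.1 and 32.3 CPM in CKO. Both genotypes had less Ltbr after PTX, without overlap between the treatments, and the fl/fl decrease was called (log2 -2.15, edgeR adjusted p = 0.0273) while the CKO decrease was not (log2 -1.50, edgeR adjusted p = 0.12). The interaction was 0.63 on the log2(CPM + 1) scale, with p = 0.3555 in an exact two-sided permutation of genotype labels within treatment (4900 assignments). The edgeR estimate was 0.65 ± 0.71 (SE, 95% interval -0.85 to 2.15). Within dates, the CKO minus fl/fl difference in log2(CPM + 1) was 0.65 on 24 September, 0.73 on 25 September, 0.64 on 1 October and -0.53 on 2 October. No CKO group had less Ltbr than its fl/fl counterpart beyond the spread, so the deletion named by the CKO label was not seen. These counts cannot decide whether nociceptors lost the gene, since deletion was directed at them alone and the libraries also held neutrophil and glial RNA. Every direction below is one between libraries labelled CKO and libraries labelled fl/fl.

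Scn10a, whose promoter drives the Cre, had no detectable interaction either. Its levels were 1316, 1160, 492.9 and 303.3 CPM in PTX fl/fl, 831.3, 1067, 284.2 and 359.3 CPM in PTX CKO, 21.4, 30.8, 154.4 and 156.7 CPM in vehicle fl/fl, and 51.3, 53.1, 106.2 and 131.1 CPM in vehicle CKO. PTX libraries were higher without overlap under both labels, and both increases were called (log2 3.17 and 2.89). The exact two-sided permutation test gave an interaction of -0.63 (p = 0.5367) and the edgeR fit -0.28 ± 0.91 (95% interval -2.19 to 1.64).

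Across all genes, called PTX changes mostly shared their sign between the labels, and the interaction was called for 1 gene, Bend6, which is 0.00704% of the genes tested. No gene was called in the negative direction. At an unadjusted p below 0.05 there were 475 genes (3.35% of those tested), 311 higher under CKO (2.19%) and 164 lower (1.15%). The precision was low. The edgeR fit gave a common biological coefficient of variation of 0.939. For single genes, before adjustment, the median 95% interval reached 2.40 log2 units to either side of the estimate. For genes with a mean of at least 5 CPM that width was 1.93. Interactions smaller than these widths were generally not detectable. Larger ones could also go uncalled, since a call had to pass adjustment over 14200 genes. The estimates of Slc29a4 (5.56) and Sbk1 (2.68), for example, were not called.

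PTX itself was called for 704 genes in fl/fl (4.96%, 454 higher and 250 lower) and for 366 in CKO (2.58%, 315 higher and 51 lower). Of these, 245 were called under both labels, 34.8% of the fl/fl calls and 66.9% of the CKO calls, and all 245 moved in the same direction. Of the 459 genes called in fl/fl alone, 458 had the same sign in CKO and none had a called interaction, with 83 at an unadjusted p below 0.05. Of the 121 called in CKO alone, 119 had the same sign in fl/fl, and 1, Bend6, had a called interaction. The difference between labels is therefore read from the interaction and not from calls under 1 label. The responses correlated across the 14200 genes with Pearson's r of 0.523 and Spearman's rho of 0.637 as a description. They share no library, but they share dates and 1 fit, and genes are not independent replicates.

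The PTX counts rested on single libraries. In fl/fl they were 177 and 206 without PTX fl/fl replicates 1 and 2, and 263, 307 and 449 without vehicle fl/fl replicates 1, 2 and 3, against 704 with all. In CKO they were 68 and 30 without PTX CKO replicates 1 and 2, and 209, 36 and 97 without vehicle CKO replicates 1, 2 and 3, against 366. The genes called under both labels were 107 and 104 without PTX fl/fl replicates 1 and 2, 60 and 27 without PTX CKO replicates 1 and 2, 130 and 153 without vehicle fl/fl replicates 1 and 2, and 153, 32 and 80 without vehicle CKO replicates 1, 2 and 3. Those called in fl/fl alone were 70 and 102 without PTX fl/fl replicates 1 and 2, and 133, 154 and 259 without vehicle fl/fl replicates 1, 2 and 3. Those called in CKO alone were 8, 3 and 277 without PTX CKO replicates 1, 2 and 3, 235 and 312 without vehicle fl/fl replicates 1 and 2, and 56, 4 and 17 without vehicle CKO replicates 1, 2 and 3. Without the 24 September libraries only 4 genes were called in fl/fl and 0 in CKO.

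**Figure D1:**
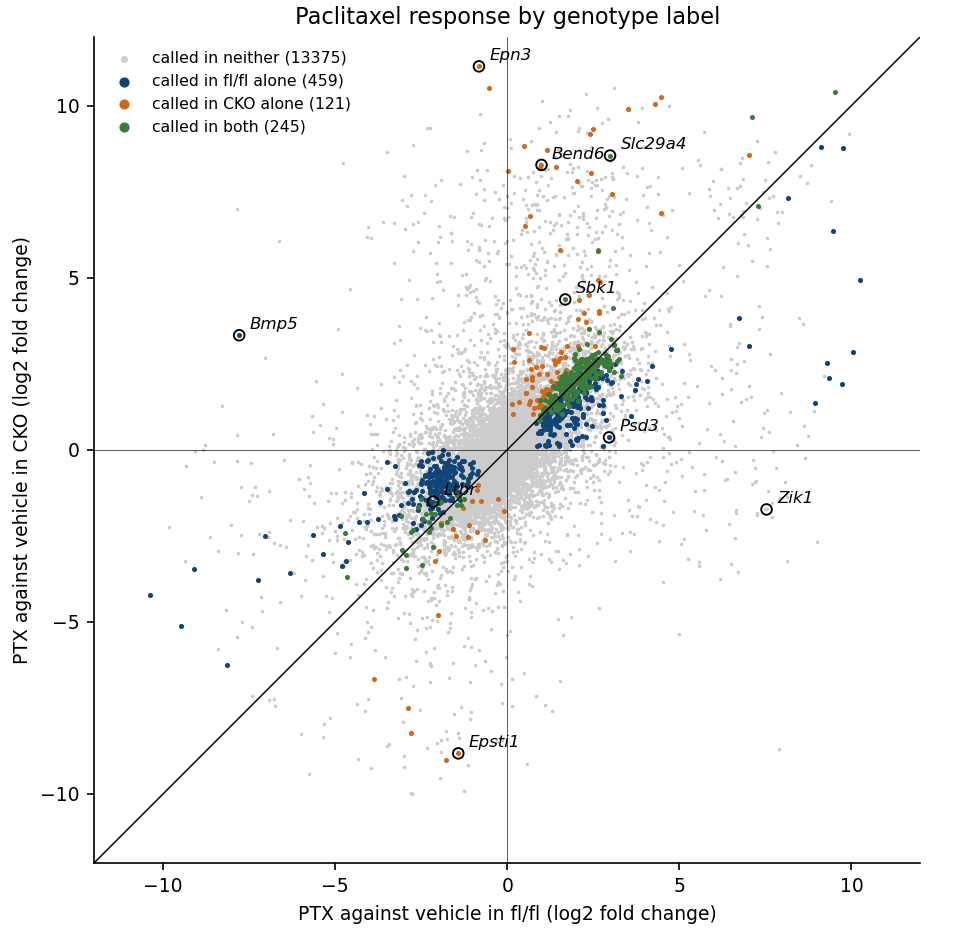
Log2 PTX response of each of the 14200 genes under fl/fl (x axis) and CKO (y axis); colours give the label under which PTX was called (245 in both, 459 in fl/fl alone, 121 in CKO alone) and the diagonal marks equal responses. Most called genes lie in the quadrants of equal sign, with Bend6, Slc29a4 and Sbk1 above the diagonal and Psd3 and Zik1 below it.

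Bend6 encodes a BEN domain protein that acts as a transcriptional corepressor in the nervous system. It was near 0 only in vehicle CKO. Its levels were 47.8, 50.9, 44.4 and 25.1 CPM in PTX fl/fl, 33.9, 35.0, 31.2 and 18.6 CPM in PTX CKO, and 23.3, 5.50, 17.1 and 38.5 CPM in vehicle fl/fl. Vehicle CKO libraries held 0.112, 0, 0 and 0.208 CPM, 3 counts in all. The 2 genotypes overlapped after PTX and were far apart after vehicle, where the fl/fl level was 262 times that of CKO (95% counting interval 89.6 to 1270). The fitted interaction was 7.28 ± 1.07 (SE, 95% interval 5.02 to 9.54, edgeR adjusted p = 0.0455). Because a fitted value of a gene near 0 depends on the prior count, the ratio of counts is also given. The PTX to vehicle ratio under CKO was 186 times that under fl/fl (95% counting interval 63.5 to 900).

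The Bend6 response alone was 8.28 under CKO (edgeR adjusted p = 0.000575) and 1.00 under fl/fl (edgeR adjusted p = 0.429). Within dates, the vehicle CKO libraries lay below the vehicle fl/fl libraries by 3.57 on 1 October and 4.60 on 2 October on the log2(CPM + 1) scale. The direction of the interaction held in all 31 alternative analyses, with estimates of 6.81 to 8.19. The call did not: it was lost in 25 of the 31, with adjusted p from 7.87e-08 to 0.9999, among them 14 of the 16 analyses that left out 1 library. Those 14 were every one except those without vehicle fl/fl replicate 2 and without vehicle CKO replicate 4.

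The next genes by p-value had the same shape, with a lower vehicle level under CKO and overlapping levels after PTX, but their interactions were not called. Slc29a4 encodes the plasma membrane monoamine transporter. It stood at 83.9, 97.1, 50.2 and 117 CPM in PTX fl/fl and 118, 88.2, 53.1 and 93.9 CPM in PTX CKO, against 0.655, 10.1, 7.66 and 25.4 CPM in vehicle fl/fl and 0.224, 0.111, 0.128 and 0.417 CPM in vehicle CKO. PTX raised it under both labels (log2 2.99 and 8.55, edgeR adjusted p = 0.0215 and 0.000575). The interaction was 5.56 ± 1.05 (edgeR adjusted p = 0.426) and was called without vehicle fl/fl replicate 1 (5.95, edgeR adjusted p = 0.00773) and by DESeq2 (5.59, DESeq2 adjusted p = 0.000352), 2 of 31 alternatives.

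Sbk1, a serine/threonine kinase, stood at 45.8, 77.4, 72.4 and 49.8 CPM in PTX fl/fl, 51.6, 64.9, 46.8 and 19.3 CPM in PTX CKO, 17.0, 13.9, 25.9 and 19.4 CPM in vehicle fl/fl and 2.36, 2.10, 3.32 and 1.04 CPM in vehicle CKO. The lowest PTX CKO value lay within the vehicle fl/fl range, and all 4 vehicle CKO values lay below every other library. PTX raised it under both labels (log2 1.69 ± 0.46 and 4.37 ± 0.52), and the interaction was 2.68 ± 0.65 (edgeR adjusted p = 1, DESeq2 adjusted p = 0.00252).

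**Figure D2:**
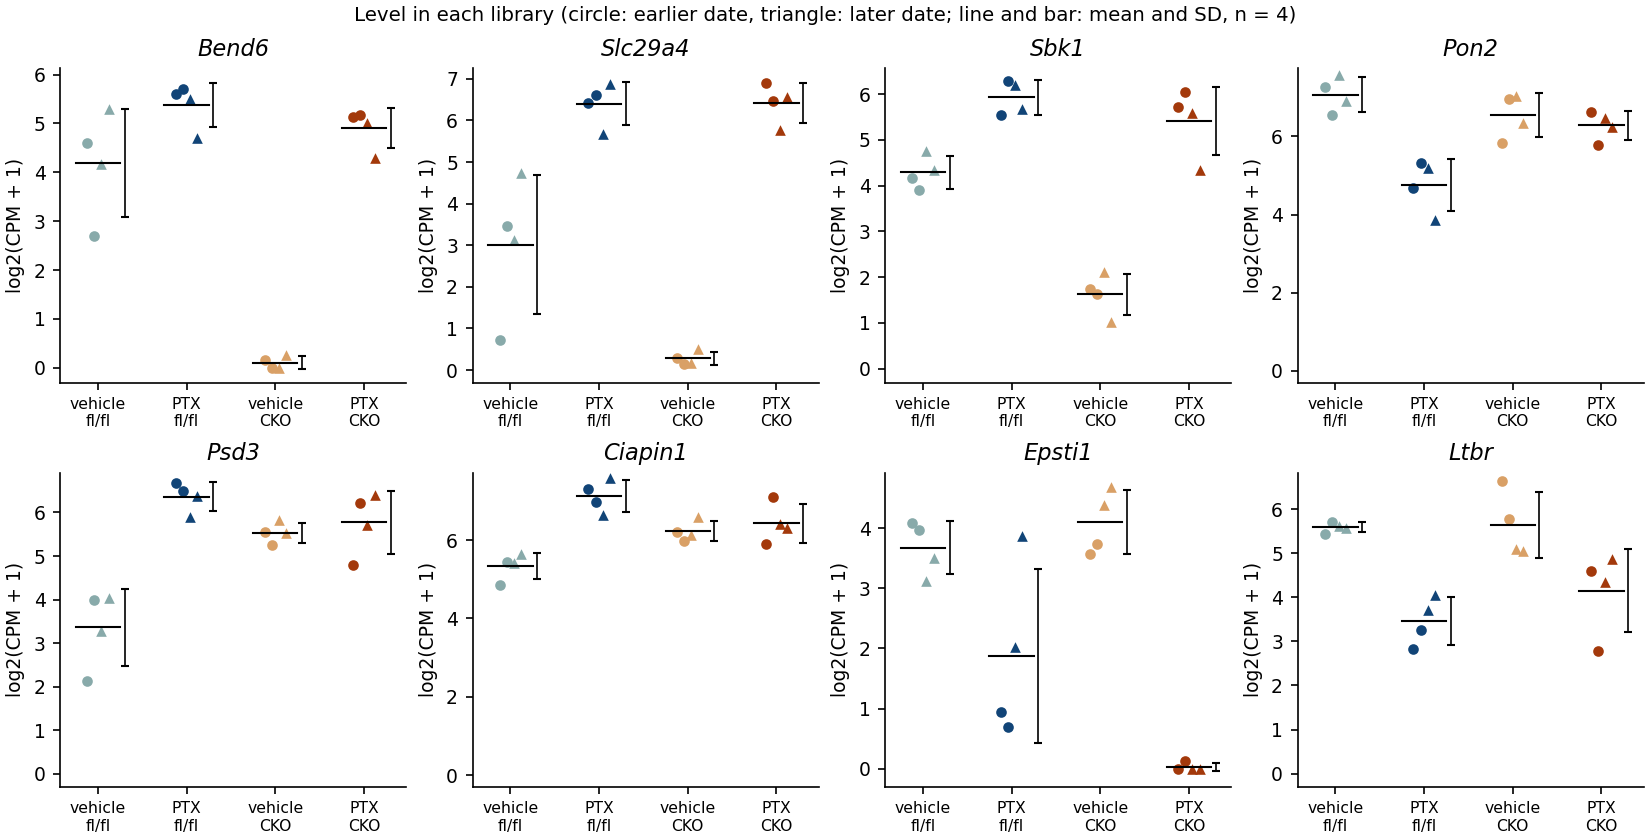
Level of 8 genes in each library as log2(CPM + 1), in vehicle fl/fl, PTX fl/fl, vehicle CKO and PTX CKO; circles are the earlier and triangles the later date of a treatment, lines are means and bars SD (n = 4). Bend6, Slc29a4 and Sbk1 are lowest in vehicle CKO, Pon2 in PTX fl/fl, Psd3 and Ciapin1 in vehicle fl/fl and Epsti1 in PTX CKO.

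Absence from vehicle CKO was a recurrent form of the positive interaction. Of the 311 genes with an unadjusted p below 0.05 and a higher response under CKO, 136 (43.7%) had 3 counts or fewer over the 4 vehicle CKO libraries, against 425 (2.99%) of all genes tested. The lower direction held such genes too. Of its 164 genes, 52 (31.7%) had 3 counts or fewer in vehicle fl/fl (1.17% of all genes tested) and 27 (16.5%) in PTX CKO (0.824%). Some group had 3 counts or fewer for 47.6% of the higher and 47% of the lower genes, against 4.94% of all genes tested. All these genes were selected on the same contrast, so the shares are a description. Counting all entries of the files, 8 genes had at most 3 counts in vehicle CKO while averaging at least 5 CPM in each other group: Adamts2, Bend6, Epn3, Gcnt4, Htr1d, Lrrc24, Prmt8 and Tmem74. The corresponding number was 2 for vehicle fl/fl (Cyp4f39 and Zik1), 0 for PTX fl/fl and 1 for PTX CKO (P2ry13). These names were taken after their values were seen. Vehicle CKO was also the group with the fewest detected genes on average, 13073 per library (12669 to 13906) against 13777 in vehicle fl/fl, 14359 in PTX fl/fl and 13687 in PTX CKO. It had the most entries at 0 in all 4 libraries, 7338 against 6816, 6106 and 6652 in the same order. The part of this lower detection in the interactions was not tested. The 2 single libraries with the fewest genes were PTX fl/fl replicate 4 (12347) and PTX CKO replicate 4 (12136).

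Epn3, an endocytic adaptor of the epsin family, had 0 counts in all vehicle CKO libraries and 15.1, 16.6, 4.12 and 77.7 CPM in PTX CKO, at least 310-fold higher (floor of 3 counts over the group, edgeR adjusted p = 0.0391). Under fl/fl it varied from 0.0824 to 30.4 CPM after vehicle and from 0.102 to 11.6 CPM after PTX, so the treatments overlapped. Lrguk, which encodes a guanylate kinase domain protein known from spermatogenesis, was at 0 in vehicle CKO and at 2.85, 7.97, 14.3 and 48.7 CPM in PTX CKO, at least 201-fold higher (edgeR adjusted p = 0.0357). In fl/fl it ranged from 0 to 8.90 CPM after vehicle and from 0 to 4.98 CPM after PTX. For both genes the highest library was PTX CKO replicate 4.

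Htr1d, the serotonin receptor 1D targeted by triptans, held 1 count in vehicle CKO and 15.2, 8.07, 20.8 and 0 CPM in PTX CKO (edgeR adjusted p = 0.0327), against 26.2, 0.117, 9.31 and 18.8 CPM in vehicle fl/fl and 11, 10.6, 25.8 and 7.42 CPM in PTX fl/fl. Lrrc24, a leucine-rich repeat membrane protein, also held 1 count in vehicle CKO and 4.53 to 25.1 CPM in PTX CKO (edgeR adjusted p = 0.0163), against 0.218 to 13.2 CPM in vehicle fl/fl and 9.70 to 37.0 CPM in PTX fl/fl. The ratio of responses, CKO over fl/fl, was 414 for Htr1d (95% counting interval 74.4 to 16370) and 200 for Lrrc24 (35.9 to 7890). Pcdhb10, one of a cluster of closely similar protocadherins among which reads may be split, was at 0 in vehicle CKO and at 0 to 17.5 CPM in PTX CKO. The replication licensing factor Cdc6 and the kinetochore gene Cenpk were likewise at 0 in vehicle CKO, with up to 13.6 and 25.4 CPM in PTX CKO. The interactions of these 7 genes, Epn3 and Lrguk included, had an edgeR adjusted p of 1, whereas DESeq2 called all 7 (DESeq2 adjusted p from 0.00102 for Epn3 to 0.0228 for Htr1d).

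The other form of the positive interaction was a decrease after PTX under fl/fl that was smaller or absent under CKO. Among the named genes, Pon2 and Bmp5 had this form. Pon2, a paraoxonase that limits oxidative stress inside cells, stood at 153, 92.3, 188 and 118 CPM in vehicle fl/fl and fell after PTX to 24.8, 39.1, 35.4 and 13.5 CPM (log2 -2.29 ± 0.39, edgeR adjusted p = 0.00678). Under CKO it stood at 56.2, 122, 131 and 80.0 CPM after vehicle and 98.5, 54.2, 88.1 and 74.7 CPM after PTX (log2 -0.30 ± 0.37, edgeR adjusted p = 0.691). All 4 PTX fl/fl libraries lay below all 4 PTX CKO libraries, and the interaction was 1.98 ± 0.53 (95% interval 0.87 to 3.10, edgeR adjusted p = 1). Bmp5, a bone morphogenetic protein, stood at 21.9, 15.9, 11.5 and 21.2 CPM in vehicle fl/fl and held 3 counts in PTX fl/fl, a called decrease (edgeR adjusted p = 0.0416) with a vehicle to PTX ratio of 251 (95% counting interval 85.8 to 1215). It also held 3 counts in vehicle CKO and 0, 0.949, 3.09 and 0 CPM in PTX CKO, so vehicle fl/fl was the only group with an appreciable level.

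Of the 12 genes with a negative interaction, Psd3, Ciapin1, Cand1, Rcan3 and Lnp were raised under fl/fl from a lower mean vehicle level and had no PTX call under CKO. Psd3, an exchange factor for the GTPase Arf6, rose from 3.39, 15, 8.65 and 15.5 CPM in vehicle fl/fl to 101, 89.5, 58.4 and 81.8 CPM in PTX fl/fl (log2 2.96 ± 0.48, edgeR adjusted p = 0.00582). Under CKO it stood at 45.8, 36.9, 55.4 and 45.0 CPM after vehicle and 26.7, 73.8, 51.1 and 83.4 CPM after PTX (log2 0.36 ± 0.44). The vehicle genotypes did not overlap and the PTX genotypes did, and the interaction was -2.60 ± 0.63 (edgeR adjusted p = 1).

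Ciapin1, a cytosolic iron-sulfur cluster assembly factor, rose under fl/fl from 27.9, 42.7, 41.8 and 48.8 CPM to 158, 124, 99.8 and 192 CPM (edgeR adjusted p = 0.00732). Under CKO the vehicle libraries stood at 62.2 to 95.8 CPM and the PTX libraries at 58.9 to 137 CPM, which overlapped. Its interaction was -1.57 ± 0.44. Cand1, an exchange factor for cullin ubiquitin ligases, rose under fl/fl (30.5 ± 19.9 to 149 ± 35.6 CPM, SD, n = 4; edgeR adjusted p = 0.0096) and stood at 81.0 ± 32.7 and 104 ± 31.3 CPM under CKO. The calcineurin regulator Rcan3 rose under fl/fl from 17.1 ± 8.41 to 124 ± 22.5 CPM (edgeR adjusted p = 0.00582), against 44.5 ± 8.14 and 81.2 ± 44.3 CPM under CKO. Lnp, which shapes junctions of the endoplasmic reticulum, rose under fl/fl from 37.6 ± 5.04 to 107 ± 24.2 CPM (edgeR adjusted p = 0.0123), against 63.3 ± 19.2 and 70.7 ± 17.9 CPM under CKO. The interactions were -1.92 ± 0.59, -1.99 ± 0.63 and -1.34 ± 0.42, none of them called.

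Nsun4, a mitochondrial ribosomal RNA methyltransferase, Osbpl7, an oxysterol-binding protein relative, and the kinesin light chain Klc4 had negative PTX estimates under CKO and positive ones under fl/fl, with no PTX call under either label. Nsun4 stood at 28.9, 60.8, 47.2 and 19.1 CPM in vehicle CKO, above the 0.582 to 11.2 CPM of vehicle fl/fl, and at 5.98 to 18.7 CPM in PTX CKO. Klc4 stood at 19.4 to 46.8 CPM in PTX CKO, below the 52.0 to 77.5 CPM of PTX fl/fl. Osbpl7 stood at 10.1 to 14.8 CPM in PTX CKO and 16.5 to 58.8 CPM in vehicle CKO, and 1 of the PTX fl/fl libraries, replicate 4, reached 130.6 CPM against 12.9 to 25.8 CPM in the others. The interactions were -3.78 ± 1.12, -1.75 ± 0.53 and -3.47 ± 1.03 in the order Nsun4, Klc4 and Osbpl7.

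Epsti1, an interferon-inducible gene expressed in macrophages and stroma, was near 0 in PTX CKO alone. It fell from 10.9, 12.4, 19.9 and 24.8 CPM in vehicle CKO to 1 count in PTX CKO (edgeR adjusted p = 0.00954), while the PTX fl/fl libraries held 0.913, 0.615, 3.06 and 13.6 CPM and the vehicle fl/fl libraries 16.1, 14.6, 7.74 and 10.4 CPM. The ratio of responses, fl/fl over CKO, was 238 (95% counting interval 42.8 to 9410). The zinc finger gene Zik1 and Chrna4, the alpha-4 subunit of the nicotinic acetylcholine receptor, were near 0 in vehicle fl/fl instead. Zik1 held 2 counts there and 31.4, 0, 26.3 and 9.28 CPM in vehicle CKO. Chrna4 held 1 count in vehicle fl/fl and rose to 9.72, 11.7, 18.0 and 56.4 CPM in PTX fl/fl (edgeR adjusted p = 0.0125), and it stood at 8.87, 0.111, 0 and 0.938 CPM in vehicle CKO and 5.81, 11.1, 10.0 and 30.8 CPM in PTX CKO. The interleukin-5 receptor gene Il5ra was at 0 in all vehicle fl/fl and PTX CKO libraries and at no more than 19.1 CPM elsewhere.

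Among these 24 named genes the label difference lay mainly in the vehicle libraries. The fitted genotype difference was larger in size after vehicle than after PTX for 11 of the 12 with a positive and 9 of the 12 with a negative interaction, against 54.8% of all genes tested. Over all genes with an unadjusted p below 0.05 it was so for 219 of 311 (70.4%) and 119 of 164 (72.6%). The vehicle genotypes did not overlap for 9 and 5 of the 12 (2.49% of all genes tested), and the PTX genotypes for 1 and 2 (2.06%). The vehicle difference had 1 sign on both October dates for 12 and 11 of the 12 (40.4% of all genes), and the PTX difference on both September dates for 8 and 11 (52.7%). DESeq2 called 11 of the 12 positive interactions, all but Pon2, and 3 of the 12 negative ones, Epsti1, Psd3 and Zik1. These genes were chosen by this contrast, in which 3.35% of all genes had an unadjusted p below 0.05, and nothing is read from these counts about genes at large.

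**Figure D3:**
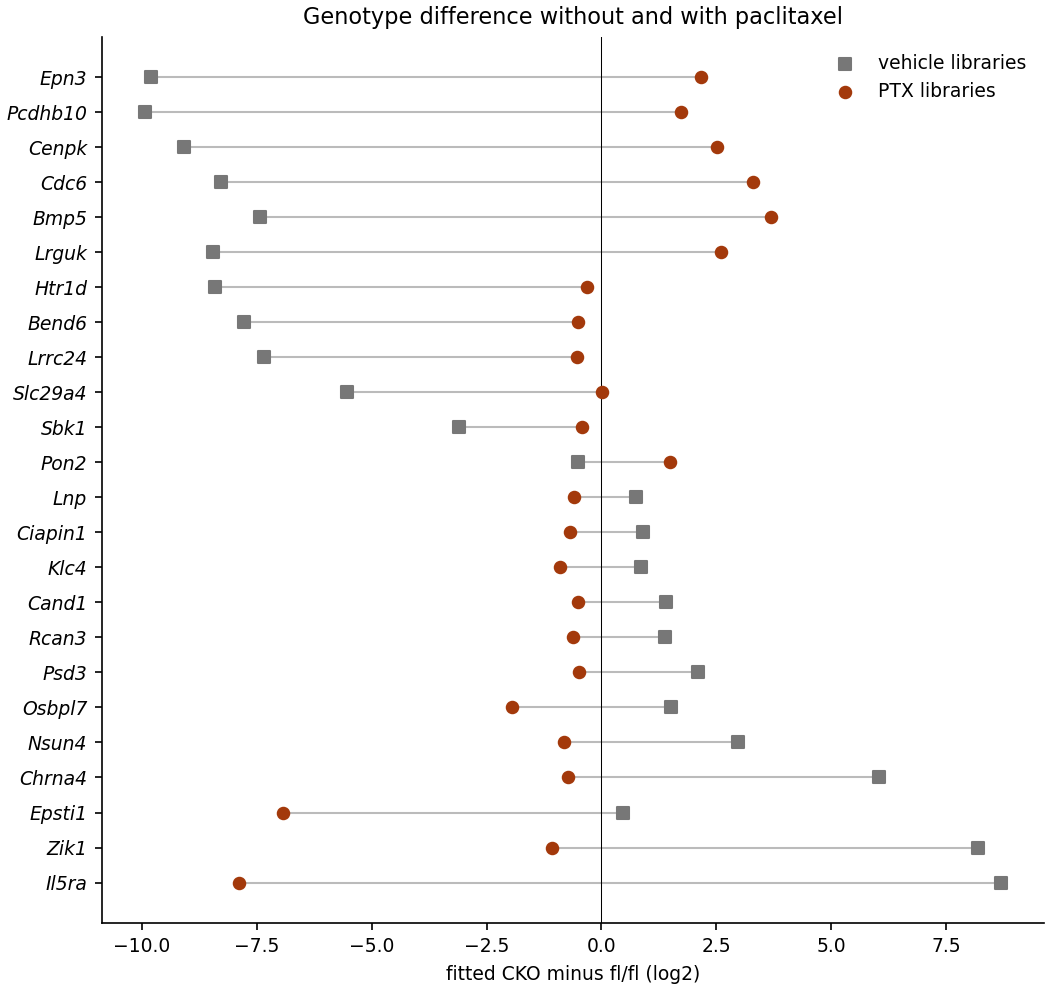
Fitted log2 difference between CKO and fl/fl in vehicle libraries (squares) and PTX libraries (circles) for the 24 named genes; the line between the symbols is the interaction. Most squares lie farther from 0 than their circles, with Pon2 and Epsti1 among the exceptions; values beyond about 7 belong to genes near 0 counts in a group and are no bounds.

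The marker lists were read by counts and medians, beside a median interaction of 0.03 over all genes. None of the 15 cell type lists or 25 pathway lists had a member with a called interaction. For the satellite glial list the median response over 23 tested members was -1.53 in fl/fl and -0.45 in CKO, the median interaction was 0.85, and 20 of 23 members were positive. Without PTX CKO replicate 1 the median was 0.49. PTX lowered 8 of 23 members in fl/fl (1.76% of all genes were called lower there) and 1 of 23 in CKO (0.359%), the endothelin receptor Ednrb, which was called under both. The 4 members named next, taken after their values were seen, had an unadjusted interaction p below 0.05: Gja1, Apoe, Slc1a3 and Entpd2.

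Gja1, the connexin that couples satellite glial cells, fell under fl/fl from 238, 170, 197 and 197 CPM to 28.0, 48.9, 61.6 and 107 CPM (edgeR adjusted p = 0.0161), against 118, 143, 125 and 89.5 CPM in vehicle CKO and 144, 68.5, 63.4 and 73.0 CPM in PTX CKO. The CKO treatments overlapped through PTX CKO replicate 1 alone, since the other PTX CKO libraries lay below all vehicle CKO libraries. After vehicle, all CKO libraries lay below all fl/fl libraries. The interaction was 1.26 ± 0.52 (edgeR adjusted p = 1). The lipid carrier Apoe fell under fl/fl from 22560 ± 3599 to 6350 ± 3518 CPM (SD, n = 4; edgeR adjusted p = 0.0186) and stood at 16648 ± 6791 and 11873 ± 5690 CPM under CKO. Slc1a3, the glutamate transporter GLAST, stood at 5.15 to 15.2 CPM in PTX fl/fl and 17.4 to 106.8 CPM in PTX CKO, without overlap. The ectonucleotidase Entpd2 stood at 22.7 to 51.5 CPM in PTX fl/fl and 35.6 to 76.3 CPM in PTX CKO. The interactions of Apoe, Slc1a3 and Entpd2 were 1.34 ± 0.57, 2.09 ± 0.94 and 1.66 ± 0.70.

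As a share of all counts, the satellite glial list took 2.77, 2.52, 4.40 and 3.55% in vehicle fl/fl and 0.580, 0.999, 0.805 and 1.93% in PTX fl/fl, without overlap. In vehicle CKO it took 3.62, 3.70, 2.04 and 1.10% and in PTX CKO 3.34, 1.34, 1.15 and 2.16%, which overlapped. The vehicle genotypes were in opposite order on the 2 dates. On 1 October both CKO libraries (3.62 and 3.70%) lay above both fl/fl libraries (2.52 and 2.77%), and on 2 October both CKO libraries (1.10 and 2.04%) lay below both fl/fl libraries (3.55 and 4.40%). The neutrophil list was in the reverse arrangement, with 17.8 and 18.7% in fl/fl against 7.86 and 12.6% in CKO on 1 October and 8.72 and 8.94% in fl/fl against 19.4 and 19.7% in CKO on 2 October. The part of these shares in the interactions of single genes was not tested. With the mean of the glial markers as a covariate the median interaction of the satellite glial list was 0.31. That covariate was made of the satellite glial and Schwann cell lists themselves, so a smaller median was built in and nothing is read from it.

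The fibroblast list had the largest positive median interaction of the marker lists, 1.91 over 15 tested members, 14 of them positive. PTX lowered 8 of 15 members in fl/fl (1.76% of all genes were called lower there) and 4 of 15 in CKO (0.359%). The 4 were called under both, and the median responses were -3.35 and -1.94. Lum, which encodes the collagen-binding proteoglycan lumican, stood at 175, 122, 80.4 and 335 CPM in vehicle fl/fl and 83.4, 154, 19.8 and 104 CPM in vehicle CKO. It fell to 5.56, 6.77, 8.07 and 6.81 CPM in PTX fl/fl and to 21.4, 8.07, 18.1 and 19.7 CPM in PTX CKO (edgeR adjusted p = 0.00183 and 0.0273), and its interaction was 2.28 ± 0.74. Apod, a lipocalin, fell under fl/fl from between 1719 and 5834 CPM to between 49.7 and 187.5 CPM (edgeR adjusted p = 0.00582), against 342.5 to 3436 CPM and 73.5 to 649.8 CPM under CKO, with an interaction of 2.64 ± 0.96. The matrix genes Fn1 and Fbln1 also had an unadjusted p below 0.05, with no more than 0.527 and 0.439 CPM in any PTX fl/fl library. In CKO, 1 library, PTX replicate 4, held 28.0 CPM of Fbln1 and the others at most 0.309 CPM. By date the fibroblast median interaction was 0.26 on the earlier dates and 3.12 on the later dates.

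Of the Schwann cell myelin genes, PTX lowered 12 of 20 members in fl/fl and 8 of 20 in CKO, 7 of them under both. Over all genes tested, 1.76% were called lower in fl/fl and 0.359% in CKO. The median responses of the list were -2.36 and -2.05 and its median interaction was 0.30. Mbp, the myelin basic protein gene, stood at 2351 ± 371 CPM in vehicle fl/fl, 431 ± 170 CPM in PTX fl/fl, 2561 ± 325 CPM in vehicle CKO and 632 ± 237 CPM in PTX CKO (SD, n = 4). The 1 member with an unadjusted interaction p below 0.05 was Plekhb1, a membrane-associated pleckstrin homology protein. It fell from 785 ± 146 to 140 ± 36.6 CPM in fl/fl and from 738 ± 164 to 272 ± 95.9 CPM in CKO, with an interaction of 1.05 ± 0.41. The median turned to -0.35 with limma-voom, to -0.48 on the earlier dates and to -0.0406 without PTX CKO replicate 4.

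**Figure D4:**
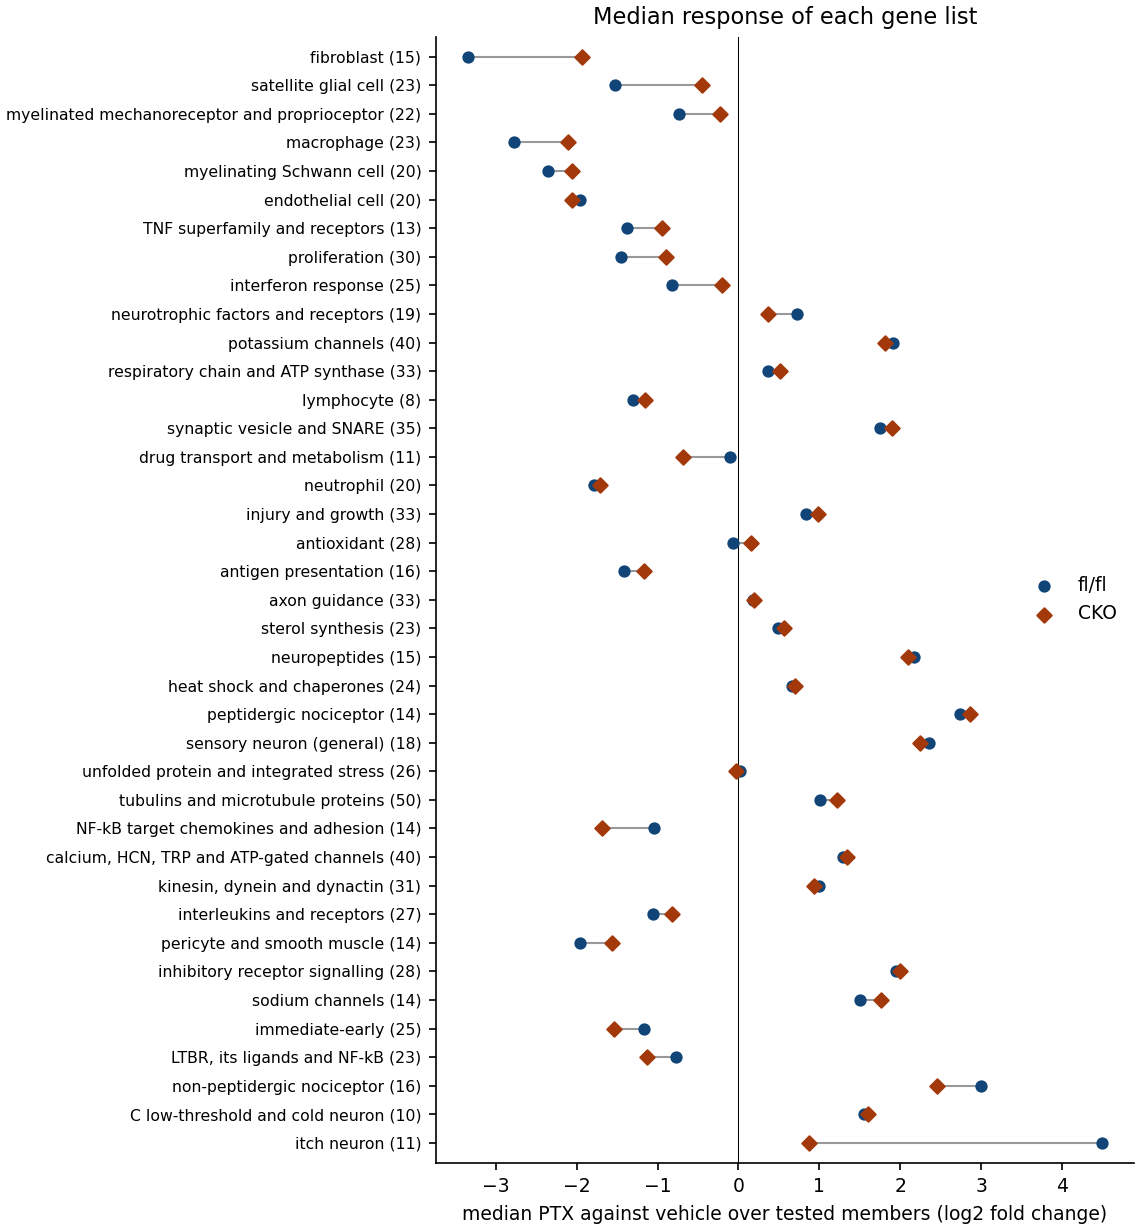
Median log2 PTX response over the tested members (number in brackets) of 39 lists under fl/fl (circles) and CKO (diamonds), ordered from the highest median interaction at the top; the red cell list, with 1 tested member, is left out. The widest gaps are those of the fibroblast, satellite glial and itch neuron lists.

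Of the general sensory neuron markers, PTX raised 12 of 18 in fl/fl and 8 of 18 in CKO (3.20% and 2.22% of all genes were called higher), all 8 under both, and the median interaction was -0.04 with no member at an unadjusted p below 0.05. Without single libraries this median lay between -0.41 (vehicle fl/fl replicate 4) and 0.24 (vehicle fl/fl replicate 2). Peripherin, Prph, stood at 2794 ± 876 CPM in PTX fl/fl and 2310 ± 1031 CPM in PTX CKO. Among 14 peptidergic nociceptor genes PTX raised 5 in fl/fl and 3 in CKO, with a median interaction of 0.04 (-0.68 without vehicle fl/fl replicate 3 and 0.36 without vehicle fl/fl replicate 1). Calca, which encodes the neuropeptide CGRP, stood at 3996 ± 1272 and 4097 ± 1341 CPM in PTX fl/fl and PTX CKO, and at 779 ± 482 and 778 ± 442 CPM after vehicle. The heat and capsaicin channel gene Trpv1 was higher after PTX without overlap under both labels, and the increase was called in fl/fl alone. Under fl/fl it rose from 27.5, 5.86, 126 and 67.3 CPM to 377, 441, 335 and 422 CPM (edgeR adjusted p = 0.0131). Under CKO it stood at 104, 123, 101 and 73.7 CPM after vehicle and 249, 332, 267 and 253 CPM after PTX (edgeR adjusted p = 0.158), and its interaction was -1.34 ± 0.77 with an unadjusted edgeR p of 0.0998.

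Itch neuron markers had the lowest median interaction of the lists, -2.58 over 11 tested members, of which 2 were positive, and the median was -2.48 with group totals set to no fewer than 3 counts. The median response was 4.50 in fl/fl and 0.88 in CKO. The list was scarce in every library, with 0.0302 to 0.0827% of counts in PTX fl/fl, 0.0279 to 0.0459% in PTX CKO and 0.0205 to 0.0298% in vehicle libraries. This share includes the kinase gene Jak1, the most abundant member, and is not read as the content of itch neurons. Somatostatin, Sst, was at 0 in all vehicle fl/fl libraries and rose to 8.97, 1.49, 6.33 and 7.82 CPM in PTX fl/fl, at least 85.6-fold (edgeR adjusted p = 0.0368). It stood at 0, 0.380, 0 and 0 CPM in PTX CKO. Neurotensin, Nts, and the leukotriene receptor gene Cysltr2 were the other members with an unadjusted p below 0.05, and both were at 0 or 1 count over vehicle fl/fl. DESeq2 called the interaction of Nts (log2 -23.8, DESeq2 adjusted p = 0.000118), a size that these counts cannot measure. Its edgeR estimate was -9.52 and lay between -13.2 and -1.36 without single libraries. Nts stood at 10.6, 0.967, 2.55 and 0 CPM in PTX fl/fl and was at 14.6 CPM in 1 vehicle CKO library and 0 in the others. In PTX CKO it stood at 5.32 CPM in replicate 1 and at no more than 0.285 CPM in the others. Cysltr2 stood at 17.8, 5.45, 14.0 and 0.102 CPM in PTX fl/fl and 2.27, 3.70, 0 and 5.37 CPM in PTX CKO. The list median was -1.34 without vehicle CKO replicate 2, -4.01 without PTX CKO replicate 3 and -6.20 without vehicle fl/fl replicate 4. It was -6.36 on the earlier dates and -0.49 on the later dates.

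Genes listed for myelinated mechanoreceptors and proprioceptors had a median interaction of 0.58 over 22 tested members, 16 of them positive. Their median responses were -0.74 in fl/fl and -0.22 in CKO, whereas those of the general sensory neuron markers were 2.35 and 2.24. The list is therefore not read as the content of these neurons, and which cells gave its counts was not tested. Ntrk2, the receptor TrkB, fell in fl/fl from 298, 311, 437 and 288 CPM to 68.6, 116, 73.1 and 123 CPM (edgeR adjusted p = 0.0123). Under CKO it stood at 420, 266, 302 and 156 CPM after vehicle and 342, 132, 128 and 216 CPM after PTX, and all PTX CKO libraries lay above all PTX fl/fl libraries. Its interaction was 1.33 ± 0.51. The transcription factor gene Maf fell in fl/fl (98.8 ± 22.4 to 15.6 ± 7.97 CPM, edgeR adjusted p = 0.0078) and stood at 66.1 ± 34.1 and 29.4 ± 12.3 CPM under CKO. The calcium-binding protein gene Necab2 was at 0 in vehicle CKO and at no more than 9.40 CPM in any library. The potassium channel gene Kcnc1 had a negative interaction of -6.71 ± 2.88 that rested on 1 vehicle CKO library with 48.9 CPM and turned to 0.31 without it.

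**Figure D5:**
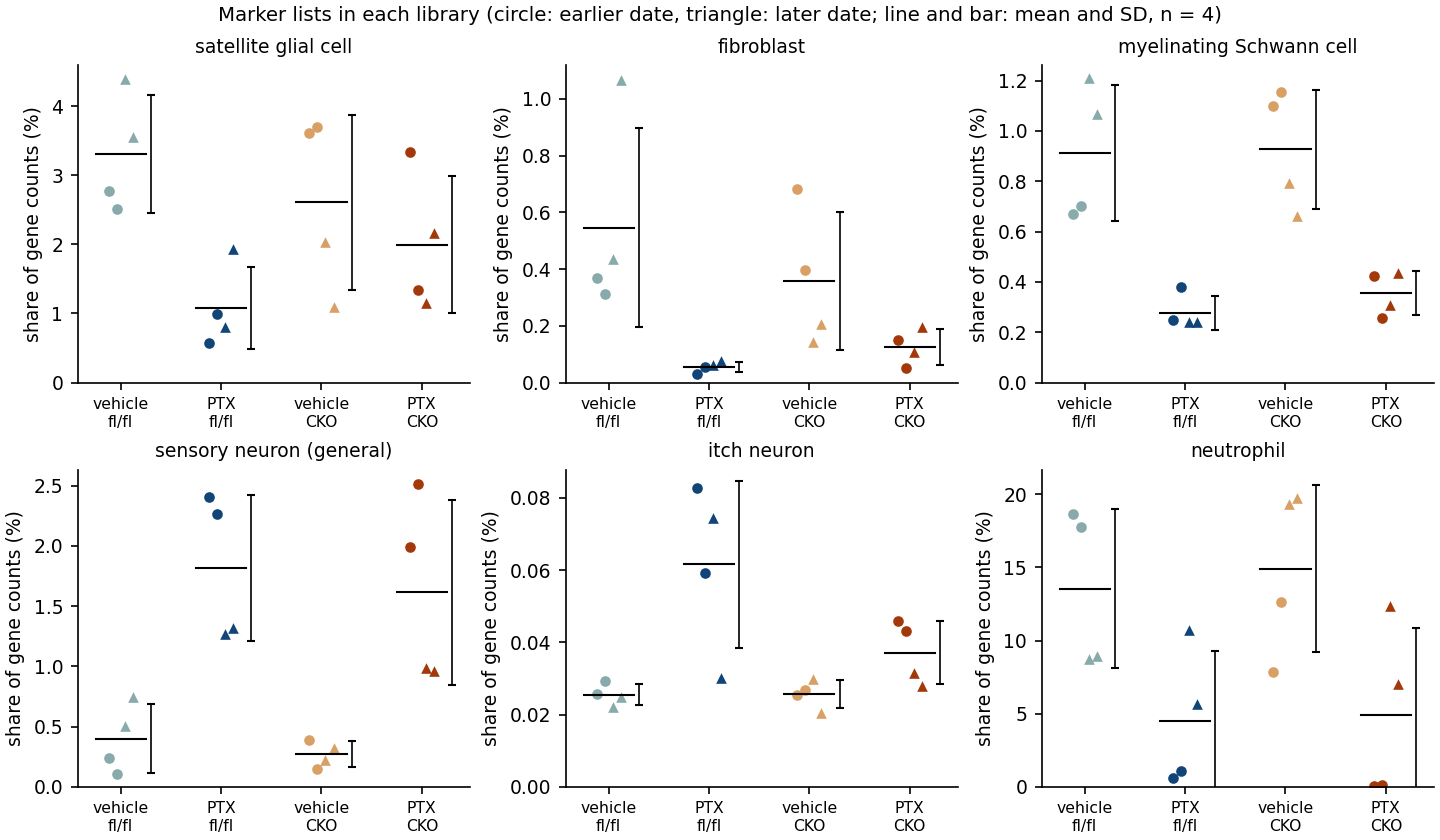
Share of gene counts (%) taken by 6 marker lists in each library, in vehicle fl/fl, PTX fl/fl, vehicle CKO and PTX CKO; circles are the earlier and triangles the later date, lines are means and bars SD (n = 4, bars cut at 0). Satellite glial shares overlap between treatments under CKO and not under fl/fl, neuron shares are higher after PTX under both, and the neutrophil share separates the dates within each group.

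The immune cell marker lists gave no interaction at an unadjusted p below 0.05. Macrophage genes had a median interaction of 0.48 (18 of 23 positive) and neutrophil genes 0.13 (11 of 20). Both medians hung on single libraries. The macrophage median lay between -0.0439 without PTX CKO replicate 4 and 1.67 without vehicle CKO replicate 1, and the neutrophil median between -1.04 without PTX CKO replicate 3 and 0.94 without PTX fl/fl replicate 3, with the sign turned in 8 of 16 such analyses. The macrophage median was -1.14 and the neutrophil median -2.69 on the earlier dates alone, where the neutrophil share was 0.575 and 1.08% in PTX fl/fl and 0.0326 and 0.101% in PTX CKO.

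The list of LTBR, its ligands and NF-kB components had a median interaction of -0.29 over 23 tested members, with 8 positive and median responses of -0.77 in fl/fl and -1.14 in CKO. The median was -0.65 without PTX CKO replicate 3 and turned to 0.20 without PTX fl/fl replicate 4. A PTX decrease was called for 1 of 23 members in fl/fl, Ltbr itself, and for 0 of 23 in CKO. Over all genes tested, 1.76% were called lower in fl/fl and 0.359% in CKO. Birc2, the ubiquitin ligase cIAP1 that acts with TRAF adaptors downstream of LTBR, was the member with an unadjusted interaction p below 0.05. It stood at 23.8, 39.3, 35.0 and 17.6 CPM in PTX fl/fl, 9.35, 17.8, 28.1 and 14.7 CPM in PTX CKO, 31.7, 55, 19.9 and 20.3 CPM in vehicle fl/fl and 109, 42.4, 43.0 and 60.8 CPM in vehicle CKO. The treatments overlapped under fl/fl and not under CKO, and the interaction was -1.73 ± 0.69 (edgeR adjusted p = 1). The NF-kB subunit Relb stood at 19.5 ± 12.4 and 15.8 ± 12.2 CPM in PTX fl/fl and PTX CKO and at 45.9 ± 16.6 and 54.3 ± 27.5 CPM after vehicle. Chemokine and adhesion targets of NF-kB had a median interaction of -0.06 over 14 members, interferon response genes 0.27 over 25, interleukins and their receptors -0.08 over 27, and genes of antigen presentation 0.10 over 16. The interferon and interleukin lists each held 1 member with an unadjusted interaction p below 0.05, Mx1 and Il34.

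Sodium channels had median responses of 1.51 in fl/fl and 1.76 in CKO (14 members), potassium channels 1.91 and 1.81 (40 members), and calcium, HCN, TRP and ATP-gated channels 1.30 and 1.34 (40 members). Over all genes tested, 3.20% were called higher after PTX in fl/fl and 2.22% in CKO. In the list of calcium, HCN, TRP and ATP-gated channels a PTX increase was called for 5 of 40 members in fl/fl and 0 of 40 in CKO. P2rx2, an ATP-gated channel of sensory neurons, was one of them. It was at 0 in vehicle fl/fl and at 15.7, 9.05, 12.8 and 15.6 CPM in PTX fl/fl (at least 185-fold higher, edgeR adjusted p = 0.0422), against 0, 0, 0 and 1.46 CPM in vehicle CKO and 6.01, 4.65, 0.206 and 0 CPM in PTX CKO. All PTX fl/fl libraries lay above all PTX CKO libraries, but the interaction was not called (edgeR adjusted p = 1). Tubulins and microtubule proteins, the direct setting of the drug, had 16 of 50 members raised in fl/fl and 15 of 50 in CKO, 14 of them under both, with median responses of 1.01 and 1.22 and no member with an unadjusted interaction p below 0.05. For the synaptic vesicle and SNARE genes the numbers were 13 and 12 of 35, with 10 under both and a median interaction of 0.17.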

How the data were processed

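The 16 deposited tables hold raw counts per gene made by the authors, without normalization. Per the submitters' processing notes, bcl2fastq, TopHat2 and HTSeq were used with mm9, and versions and the strand setting of the counting are not given in the sources used here. Per the labels' protocols, about 500 ng of total RNA entered a stranded mRNA preparation that was read as 50-base single ends. Each file had 22609 gene entries and 5 summary lines, which were left out. Reads assigned to genes were 32.9 to 43.5% of those counted. Symbols are those of the files, and 20043 of them were current in RefSeq. All 24 within-group pairs differed by more than counting error (chi-square over degrees of freedom 19.5 or more).

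Counts were filtered with filterByExpr (14200 genes), TMM-scaled and modelled in edgeR 4.0.16 under R 4.3.3 (robust quasi-likelihood, 1 mean per group, 12 residual degrees of freedom), with Benjamini-Hochberg adjustment and a threshold of 0.05. Ltbr and Scn10a were also tested by exact permutation with a pseudocount of 1. Counting intervals are exact Poisson at 95% and, like the floor of 3 counts, cover counting error only. The analysis was tested on simulated data.

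The comparison, the gene lists, the naming rule and the alternative analyses were chosen with earlier results of these data known, and no list was tested. Named genes were Ltbr, Scn10a, the 12 in each direction past the threshold or, to fill up, with the smallest interaction p (at least 5 CPM in 1 group, no clone names), from each list the member with the smallest p and the most abundant one, and 5 genes called under 1 label alone. The text gives part of the last 3 sets. Of 969 list entries 962 matched, 18 distinct genes by an older symbol.

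Alternatives tried were scaling by RLE or upper quartile, a filter of 5 CPM in 4 libraries or none, date or replicate number as a block, DESeq2 1.42.0, limma-voom (limma 3.58.1), each date alone, marker covariates, each library left out, a pseudocount of 0.25, and permutation within dates. Leaving out the 2 PTX libraries with the fewest genes, or the 24 September libraries, was chosen after seeing the data.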

Additional observations from a re-analysis of the deposited data

Results flagged for a closer look

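The PTX response of Bend6 differed between the labels by 7.28 log2 units in the interaction test, the 1 call of that kind.

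Of 220 groups of 4 libraries examined for the printed genes and list shares, 28 held a library set apart from the other 3 by more than 0.829 of the group's range. Chance passes that limit in about 1 in 20 groups of normally distributed values. Levels near 0 are not so distributed, and many of the genes were chosen by the interaction. The number is therefore not compared with chance, and the 28 groups are a description. In 13 of them, 1 library held counts and the other 3 were at 0: Bmp5 (0.264 CPM), Fn1 (0.527) and Fbln1 (0.439) in PTX fl/fl replicate 2, Lrrc24 (0.128) and Sst (0.128) in vehicle CKO replicate 3, Htr1d (0.104) and P2rx2 (1.46) in vehicle CKO replicate 4, Epsti1 (0.0949) and Sst (0.380) in PTX CKO replicate 2, Zik1 (0.165) and Cysltr2 (0.0824) in vehicle fl/fl replicate 3, Chrna4 (0.117) in vehicle fl/fl replicate 2 and Nts (14.6) in vehicle CKO replicate 2.

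PTX CKO replicate 4 stood apart for Epn3 (77.7 CPM, others 4.12 to 16.6), Slc1a3 (106.8, others 17.4 to 28.6) and Fbln1 (28.0, others at most 0.309). PTX CKO replicate 1 stood apart for Gja1 (143.9, others 63.4 to 73.0) and Nts (5.32, others at most 0.285). PTX fl/fl replicate 4 stood apart for Osbpl7 (130.6, others 12.9 to 25.8). In vehicle CKO, replicate 1 stood apart for Maf (116.8, others 44.4 to 55.8), Kcnc1 (48.9, others at most 0.256) and Chrna4 (8.87, others at most 0.938), and replicate 4 for Il5ra (19.1, others at most 1.68). In vehicle fl/fl, replicate 3 stood apart for Ntrk2 (436.8, others 288 to 311) and replicate 4 for Apod (5834, others 1719 to 1948). By share of counts, the same held for the myelinating Schwann cell list in PTX fl/fl replicate 2 (0.380%, others 0.239 to 0.248%), the fibroblast list in vehicle fl/fl replicate 4 (1.07%, others 0.313 to 0.435%) and the tubulin list in vehicle CKO replicate 1 (0.861%, others 0.638 to 0.657%).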

How the results depend on the processing

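The genotype by PTX interaction called 1 gene. It called 0 under RLE and upper-quartile scaling, the date block, limma-voom with quality weights, either date alone, and the glial and neutrophil marker covariates, and 0 also without the 2 PTX libraries of fewest genes and without 24 September, both added after seeing the data. DESeq2 called 60 (39 higher, 21 lower). Its fitted log2 sizes among these reached 46.5 for A530099J19Rik and -42.5 for Fam109b. Sizes of that order cannot be measured at this depth, so the 60 are not read as sizes. Leaving out 1 library gave 0 to 4 calls in edgeR, with 4, Bend6 among them, without vehicle CKO replicate 4. Genes at an unadjusted p below 0.05 in the higher direction were 484 without vehicle CKO replicate 4 and 211 to 488 over the other settings, and in the lower direction 292 without PTX CKO replicate 3, 281 without vehicle fl/fl replicate 4 and 106 to 672 over the others. With the replicate block the call count was 0, the adjusted p of Bend6 was 0.3489, and PTX calls were 361 in fl/fl and 126 in CKO. The labels tie the numbers to no shared animal, though same-numbered libraries of a treatment share a title date. Same-numbered PTX fl/fl and PTX CKO libraries correlated at 0.22 to 0.40, all 4 pairs over 0.1, against -0.20 to 0.0792 and none over 0.1 in the other 20 pairs, and the own number was the best match in 6 of 24 pairs. PTX calls were 1635 and 1437 with DESeq2, 5283 and 2686 with limma-voom, and 0 and 2 with the neuron covariate. Under the glial covariate the edgeR interaction of Ltbr turned to -0.0114 and that of Scn10a to 0.17. The Scn10a value also turned to 0.13 on the later dates and, without single libraries, lay between -0.68 and 0.05 (0.0503 without PTX fl/fl replicate 1, and 0.05, 0.0092 and 0.0055 without vehicle fl/fl replicates 1 and 2 and vehicle CKO replicate 4). Fbln1 turned to -0.79 on the earlier dates and Kcnc1, at -8.08 to 0.31 without single libraries, to the latter without vehicle CKO replicate 1, which held most of its counts there. Otherwise the cause was not tested. Depth limited genes near 0 in a group, whose fitted sizes are no bounds.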
